A study of Mus musculus with 16 samples.

Results

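Lungs of NM1 knockout (KO) mice were set against lungs of wild-type (WT) mice, with 3 arrays per genotype, 6 of the 16 arrays of the series. The arrays were chosen by their titles, which give genotype, tissue and a mouse number: KO 1602, 1603 and 1586, and WT 1592, 1624 and 1593. The other 10 arrays hold hearts of the same mice and skin fibroblasts, and entered only the estimate of the spread. Genotype is the only stated difference between the groups, and no treatment is named. The sources used here do not give strain, age or sex, nor which stretch of the gene was deleted, so it is also unstated whether its other products were left intact. Different mouse numbers were taken to be different animals, and p-values measure only the spread between these samples.

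Each array gave 1 log2 signal per probe set, a group of short probes against 1 transcript or transcript family. Of 45037 probe sets, 23213 had a mean over the 6 lung arrays above 3.79, the median of all deposited values, and were compared. They include 16526 that name exactly 1 gene, covering 10726 genes. Just above that limit, within 0.1 log2, lay 624 kept probe sets, and 654 lay as close below it. Medians of the lung arrays ran from 3.86 to 3.93 and correlations between them, across probe sets that are not independent, from 0.974 to 0.993. Precision is limited by there being 3 arrays a group, and no detection calls were given.

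NM1, nuclear myosin 1, is a product of Myo1c, a gene that also encodes plasma membrane and cytoplasmic forms of the same single-headed, actin-based motor. The nuclear form is known as a cofactor of RNA polymerase I and as a part of the chromatin remodelling complex B-WICH, and the cytoplasmic form to delivery of the glucose carrier GLUT4 and to membrane tension. Lung tissue mixes alveolar type I and type II cells, club and ciliated airway cells, capillary endothelium, fibroblasts, smooth muscle and resident immune cells, so a change in a tissue level can come from any of them. Fewer cells of a type and less RNA per cell cannot be told apart in such samples.

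All 6 arrays carried the markers of lung at high levels. Sftpc, the surfactant protein C of alveolar type II cells, was 14.001, 13.92 and 13.95 in KO 1602, 1603 and 1586 and 13.92, 14.06 and 14.13 in WT 1592, 1624 and 1593, the order kept below. Scgb1a1, the club cell secretory protein, lay between 14.12 and 14.21 on the 6 arrays, with identical values on KO 1586 and WT 1624 and on WT 1592 and WT 1593. The former pair read 14.2107, the highest value on any lung array, and both signals stand at this end of the scale, where differences may be compressed. They show that lung was sampled and little about how evenly. Ager, a receptor abundant on alveolar type I cells, read 13.62, 13.46 and 13.23 in KO and 13.34, 13.59 and 13.67 in WT. In each case the groups overlapped, and KO minus WT was -0.08, 0.04 and -0.10 for the 3 genes, with adjusted p of 0.969, 0.991 and 0.924 in limma. The limma SE was 0.47 for Sftpc and 0.84 for Scgb1a1. Their SDs in KO and WT lungs were only 0.04 and 0.11, and 0.01 and 0.05. This SE draws on hearts and fibroblasts too, so these p-values say little about differences between lungs.

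Transcripts of tissue next to the lung differed far more between animals than these markers. Adipoq, a hormone of fat cells, was 2.73, 10.53 and 10.80 in KO and 9.83, 3.99 and 3.45 in WT. Ucp1, the uncoupling protein of brown fat, was 2.59, 8.02 and 9.43 against 3.87, 2.86 and 2.77. KO 1603, KO 1586 and WT 1592 were thus high in Adipoq, while KO 1602, WT 1624 and WT 1593 were low. The former are called fat-rich and the latter fat-poor here, divided at the midpoint, 6.39, of the mean of Adipoq and Ucp1.

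Atrial and airway transcripts followed the same division. Myl4, the atrial essential myosin light chain, was 6.24, 10.98 and 10.08 in KO and 10.60, 8.60 and 8.60 in WT. Myl7, the atrial regulatory light chain, was 8.02, 12.04 and 11.37 against 11.68, 10.15 and 9.84. KO 1602 was lowest in all 4 genes and WT 1592 stood with the fat-rich KO lungs. Scgb3a1, a secretoglobin of large airways, was 4.39, 13.37 and 12.96 in KO and 13.78, 10.49 and 8.07 in WT. The antibacterial airway gene Bpifa1 ran from 3.54 in KO 1602 to 13.85 in WT 1592. So arrays within each genotype differ in fat, atrial and large-airway transcripts, whose source was not tested, and the fat-rich group holds 2 KO lungs and 1 WT lung.

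**Figure D1:**
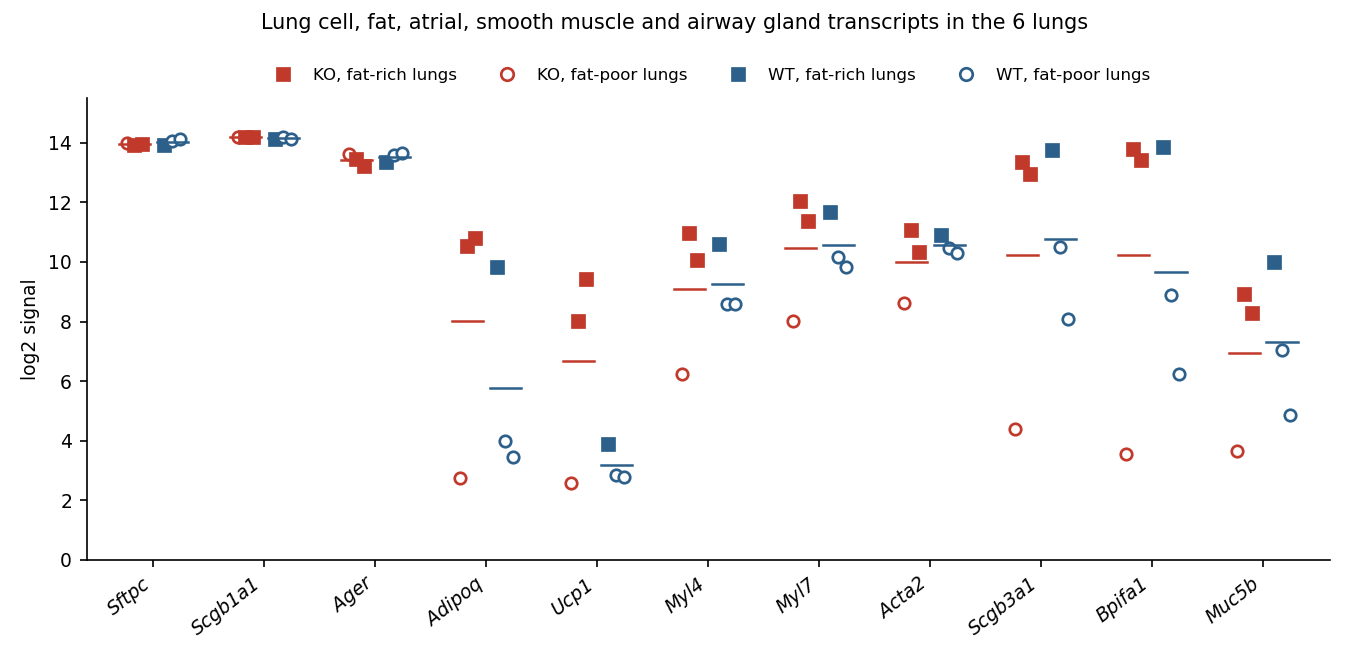
Log2 signal of lung markers (Sftpc, Scgb1a1, Ager), fat (Adipoq, Ucp1), atrial (Myl4, Myl7), smooth muscle (Acta2) and large-airway genes (Scgb3a1, Bpifa1, Muc5b), with 1 point per lung array (KO red, WT blue; filled fat-rich, open fat-poor) and a line at each group mean. The lung markers lie level across arrays, while Adipoq runs from 2.73 in KO 1602 to 10.80 in KO 1586.

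Over the kept probe sets, 120 were more than 2 log2 units higher in fat-rich than in fat-poor lungs. KO exceeded WT in 75 of them with a median difference of 0.21, but the median was -0.19 within the fat-rich lungs and -1.01 within the fat-poor ones. None of the 120 was called. KO minus WT inside each of these sets of 3 arrays is therefore given below for the called probe sets and for some of the other genes and lists. The fat-rich difference compares 2 KO lungs with 1 WT lung and the fat-poor one 1 KO lung with 2 WT lungs, so neither has a replicate in every arm.

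The targeted gene was measured first. Averaged over its 4 probe sets, Myo1c read 7.09, 6.55 and 6.31 in KO and 7.55, 8.10 and 8.35 in WT. Every KO lung lay below every WT lung, with KO 1602 and WT 1592 the closest. The group means were 6.65 ± 0.40 and 8.002 ± 0.41 (SD, n = 3 each), a difference of -1.35 or 2.55-fold lower in KO. The two-sided exact permutation test gave p = 0.1, the smallest value that 3 against 3 animals allow. Myo1c signal was thus still above the table median in the KO lungs, and these probe sets do not separate the nuclear form from the others.

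None of the 4 Myo1c probe sets passed the adjusted threshold of 0.05. The probe set 1419649_PM_s_at read 9.85, 9.45 and 9.20 in KO and 10.30, 10.72 and 10.95 in WT, a difference of -1.15 ± 0.18 (SE) with an adjusted p of 0.0674. 1419648_PM_at differed by -1.42 (adjusted p = 0.0685), and 1449550_PM_at and 1449551_PM_at by -1.23 and -1.61 (adjusted p = 0.183 for both). The differences were of like size in both sets of arrays: -0.97 among fat-rich and -0.98 among fat-poor lungs for 1419649_PM_s_at, and -1.20 and -1.26 for 1419648_PM_at. With the fat-rich or fat-poor set as a block, 1419649_PM_s_at passed the threshold, with an adjusted p of 0.0370, but with the fat transcripts as a term it did not (0.0556). With the atrial transcripts as a term all 4 probe sets passed, at adjusted p from 0.0133 to 0.0325. 1419649_PM_s_at also passed when KO 1602 or WT 1592, the closest arrays, was left out (adjusted p = 0.0220 and 0.0184), and had an adjusted p of 0.178 to 0.357 when any of the other 4 was.

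Across the kept probe sets, limma called 7 at an adjusted p under 0.05, which is 0.0302% of those tested. Of these, 4 were higher in KO (0.0172%) and 3 lower (0.0129%). The higher ones name Xaf1, Pisd-ps3 and Sfi1 and include 1 probe set without a listed gene. The lower ones name Fam107a and Tent5b and include another unnamed probe set. In none of the 7 did the KO and WT arrays overlap. Their direction was therefore the same in the fat-rich and the fat-poor lungs by construction, and is no separate result. Groups without overlap were common by themselves: 2679 probe sets, or 11.5%, had none, with all KO arrays higher in 1179 (5.08%) and lower in 1500 (6.46%).

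**Figure D2:**
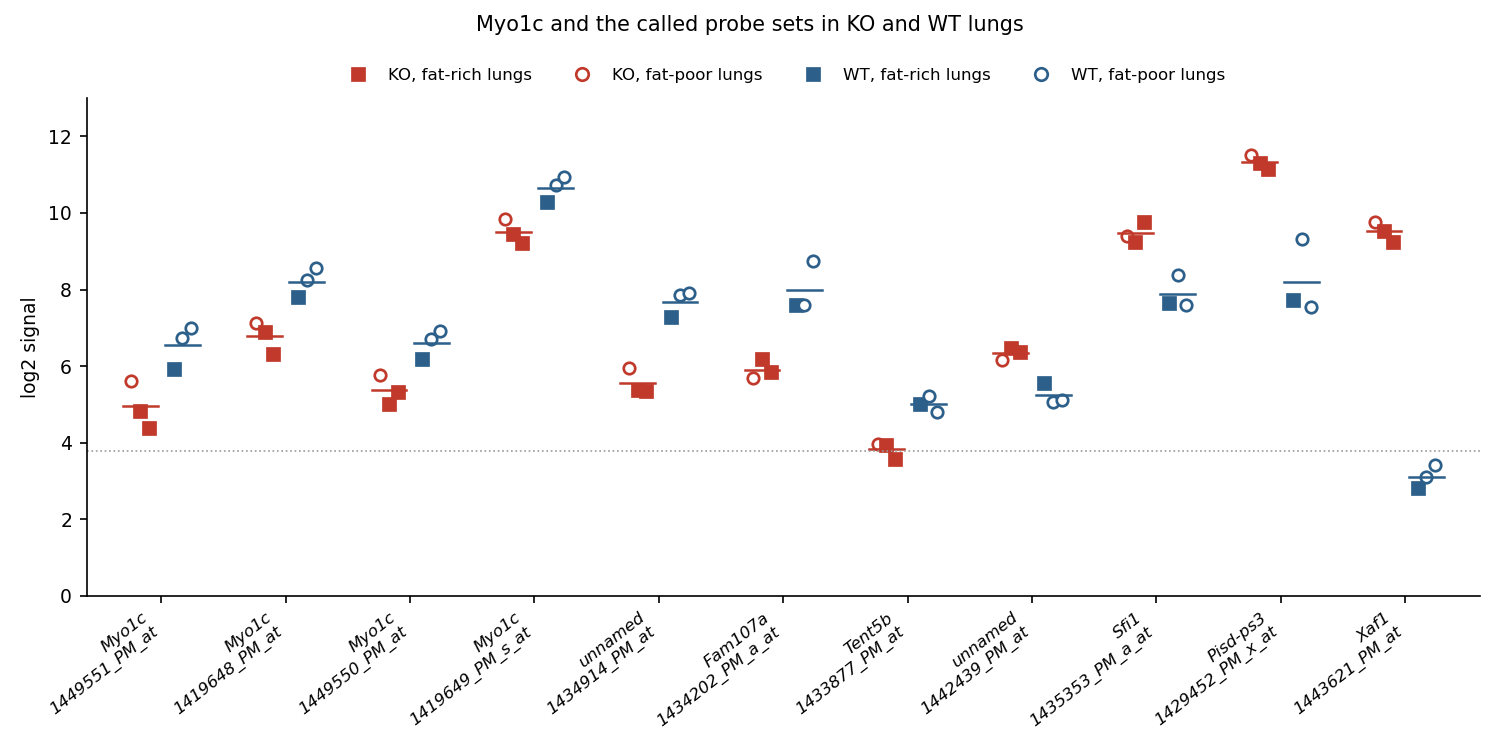
Log2 signal of the 4 Myo1c probe sets and the 7 called probe sets, with 1 point per lung array (KO red, WT blue; filled fat-rich, open fat-poor), a short line at each group mean and a dotted line at 3.79, the median of the table. KO and WT points are apart for every probe set shown, widest for Xaf1 at 9.25 to 9.77 against 2.81 to 3.41.

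Xaf1, an interferon-inducible antagonist of the apoptosis inhibitor XIAP, gave the widest gap of the 7. Its probe set 1443621_PM_at read 9.77, 9.53 and 9.25 in KO and 2.81, 3.10 and 3.41 in WT. All WT values lay under the median of the table, and all KO values were far above it. The difference was 6.41 ± 0.82 (SE), with an adjusted p of 0.0173, and was 6.58 among fat-rich and 6.52 among fat-poor lungs. Because low signals on an array have no known zero, this is given as a log2 difference and not as a fold.

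A second Xaf1 probe set went the opposite way. 1443698_PM_at read 6.45, 5.98 and 5.26 in KO and 6.58, 7.14 and 7.53 in WT. Every KO lung was again on 1 side of every WT lung, this time below. The difference was -1.19 with an adjusted p of 0.364, so it did not pass, and it was -0.97 and -0.89 within the fat-rich and the fat-poor lungs. The sources used here do not say which transcripts the 2 probe sets report, so these arrays give no single direction for Xaf1 as a gene.

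Other interferon-inducible genes and inhibitors of apoptosis showed no difference near that size. Of the 21 kept genes of an interferon list, 15 were higher and 6 lower in KO, with a median of 0.17. Over all 10726 kept genes, with the probe set of highest mean per gene, 33.2% were higher and 66.8% lower, with a median of -0.08. Over all kept probe sets these shares were 40.0% and 60.0%. Within fat-rich and fat-poor lungs the interferon medians were 0.34 and 0.24. In both sets of arrays 15 of the 21 members were higher (71.4%), against 15.2% of all kept genes. Averaged over the list, however, the KO lungs read 7.23, 6.82 and 6.48 and the WT lungs 6.34, 6.98 and 6.96, so the groups overlapped. No member was called, and the only one under an unadjusted p of 0.05 was Xaf1 itself, entered by the second, lower probe set. Oas2, a double-stranded RNA sensor, differed by 0.49 and Zbp1, a sensor of Z-form nucleic acids, by 0.44 (adjusted p = 0.713 and 0.734). Of 10 kept inhibitors of apoptosis and their partners, 6 were higher and 4 lower, with a median of 0.05, and Xiap differed by -0.11.

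The region before the Xaf1 start is shown because its called probe set had the widest difference, and it was searched for the interferon-stimulated response element, spelled GAAA, any 2 bases and GAAA, on both strands. Sequences here are the 250 bases before a RefSeq start site on assembly GRCm38.p6, given 5′ to 3′ on the gene's strand. No match was found in the Xaf1 window, chr11:72301379-72301628 on the plus strand, which says only that these letters are not in it.
Xaf1: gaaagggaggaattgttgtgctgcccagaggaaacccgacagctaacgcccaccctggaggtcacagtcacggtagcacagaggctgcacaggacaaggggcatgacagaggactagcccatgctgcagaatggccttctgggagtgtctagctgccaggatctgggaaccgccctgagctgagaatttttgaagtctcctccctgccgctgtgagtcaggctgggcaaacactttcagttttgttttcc
The element was present in 7 of the 16 interferon genes with a promoter entry (43.8%), against 3.46% of all 27025 genes with an entry and 2.98% of all 32851 windows. The 7 were Gbp2, Gbp3, Ifit1, Ifit3, Igtp, Rsad2 and Stat2. These genes are targets of interferon by choice of the list, so the share describes the list.

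Pisd-ps3, a pseudogene of the mitochondrial phosphatidylserine decarboxylase gene Pisd, was next in size. The called probe set 1429452_PM_x_at read 11.52, 11.31 and 11.14 in KO and 7.73, 9.32 and 7.54 in WT. The KO lungs were close together and the WT lungs spread, with WT 1624 highest among them. The difference was 3.12 ± 0.47 (SE), with an adjusted p of 0.0474, and 3.49 and 3.09 in the fat-rich and fat-poor lungs. With the fat set as a block the adjusted p was 0.0564 and the call was lost. The 2 further probe sets of Pisd-ps3 differed by 3.61 and 2.93 (adjusted p = 0.0685 and 0.0674).

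A probe set assigned to Pisd itself, 1435426_PM_s_at, differed by 1.23, with means of 5.66 ± 0.31 for KO and 4.43 ± 0.41 for WT (SD, n = 3 each; adjusted p = 0.183). The 2 other kept Pisd probe sets, 1 of them the brightest, differed by 0.05 and 0.37. Signal shared between the gene and its pseudogene cannot be told apart here. Sfi1, a gene for a centrosomal protein that binds centrins, read 9.41, 9.25 and 9.77 in KO and 7.64, 8.38 and 7.60 in WT on probe set 1435353_PM_a_at. The groups did not overlap. The difference was 1.60 ± 0.24 (SE; adjusted p = 0.0474), and 1.87 and 1.42 within the fat-rich and fat-poor lungs, with an adjusted p of 0.0768 when the fat set was a block. The 4 other kept Sfi1 probe sets differed by -0.32 to 0.21, and none of them passed. The unnamed probe set 1442439_PM_at read 6.17, 6.46 and 6.36 in KO and 5.55, 5.07 and 5.11 in WT, a difference of 1.08 (adjusted p = 0.0474, and 0.0564 with the fat set as a block), or 0.86 and 1.08 in the fat-rich and fat-poor lungs.

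Fam107a, an actin-associated stress gene induced by glucocorticoids, fell in KO lungs. Its probe set 1434202_PM_a_at read 5.70, 6.17 and 5.83 in KO and 7.60, 7.59 and 8.73 in WT. All KO lungs lay below all WT lungs, with WT 1593 the highest. The difference was -2.07 ± 0.26 (SE), 4.21-fold lower, with an adjusted p of 0.0173. It was -1.60 among fat-rich and -2.47 among fat-poor lungs, and the call held with the fat set as a block (adjusted p = 0.0366). A second kept probe set, 1434203_PM_at, differed by -1.49 in the same direction without passing (adjusted p = 0.127).

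Tent5b, a poly(A) polymerase family member, fell from 5.004, 5.22 and 4.81 in WT to 3.95, 3.93 and 3.58 in KO. The groups stood apart with a small spread in each. The difference was -1.19 ± 0.17 (SE), 2.28-fold, with an adjusted p of 0.0474, and -1.25 and -1.06 in the fat-rich and fat-poor lungs. With the fat set as a block its adjusted p was 0.0768. The unnamed probe set 1434914_PM_at fell from 7.27, 7.86 and 7.90 in WT to 5.95, 5.38 and 5.34 in KO, by 2.12 on the log2 scale (adjusted p = 0.0173, and 0.0165 with the fat set as a block). Within the fat-rich and fat-poor lungs it differed by -1.91 and -1.94.

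These calls rested on few animals and on the spread shared with the other tissues. With the 6 lung arrays fitted alone, Xaf1 was the only call left, and the other 6 had adjusted p from 0.334 to 0.429. With the fat transcripts as a term Sfi1, Tent5b and 1442439_PM_at were lost, at 0.0779, 0.0779 and 0.0767. Without KO 1586, none of the 23213 probe sets was called, although 575 had an unadjusted p under 0.05 in limma. Without KO 1603 only Fam107a remained of the 7 (adjusted p = 0.0471), and likewise without WT 1593 (0.0117). Without WT 1624, Xaf1 had an adjusted p of 0.0600, 1434914_PM_at one of 0.0513, and Tent5b and 1442439_PM_at one of 0.203. Without WT 1592, Pisd-ps3, Sfi1 and Tent5b were lost at 0.0813, 0.0816 and 0.0616.

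Beyond the 7, the search was widened to probe sets with 1 gene whose groups did not overlap and whose difference was at least 0.58 log2 in the same direction in both the fat-rich and fat-poor lungs. In all 56 probe sets of 48 genes met this, 18 genes higher and 31 lower, with Xaf1 in both. These figures describe a filter and are not calls. Among probe sets with an unadjusted p under 0.05, 767 were higher (3.30%) and 850 lower (3.66%), 1617 in all (6.97%), and 729 and 818 of them had the same sign in both sets of arrays.

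**Figure D3:**
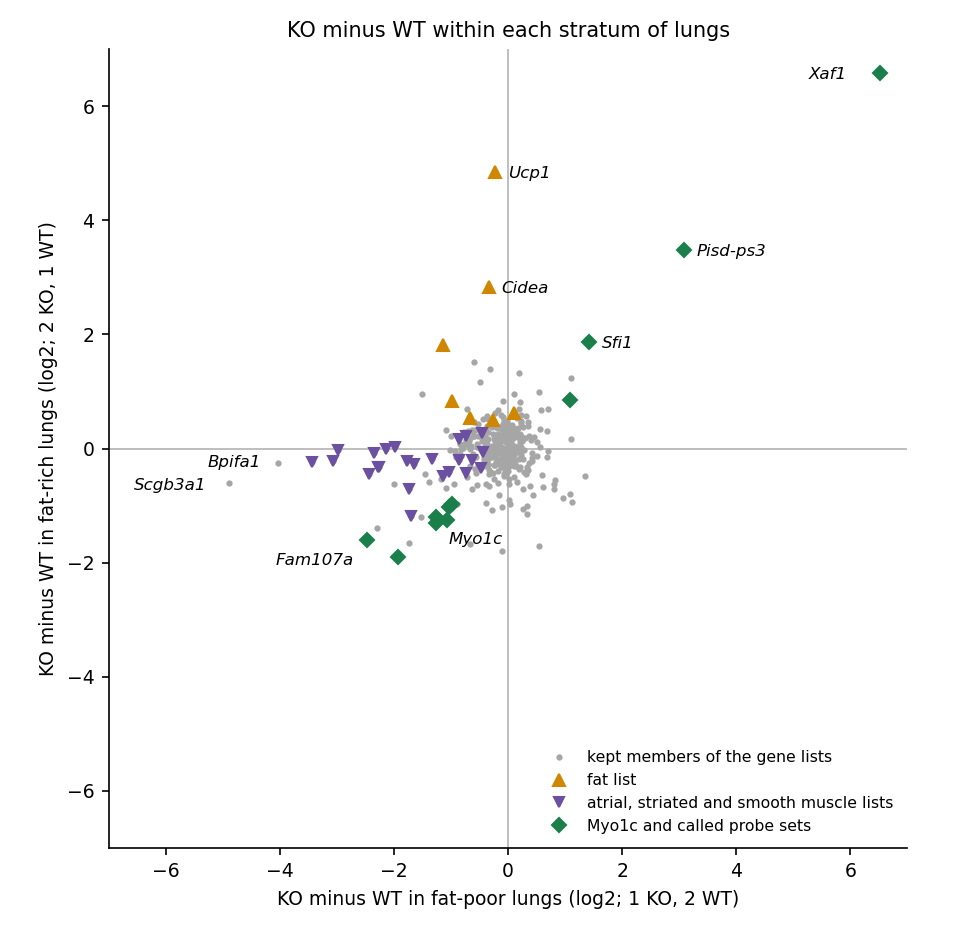
KO minus WT (log2) within the fat-rich lungs (vertical) against that within the fat-poor lungs (horizontal), for kept members of the gene lists (grey), with fat genes, muscle genes, and Myo1c and the called probe sets marked by shape and colour. Xaf1 (6.58 and 6.52), Pisd-ps3 and Fam107a (-1.60 and -2.47) lie far from 0 on both axes, whereas Ucp1 (4.85 and -0.23) is high only on the vertical one.

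The lower genes with the smallest p under this filter, the called ones aside, did not pass the test. Hhip, a decoy receptor that dampens hedgehog signalling, read 4.71, 4.57 and 4.42 in KO and 5.23, 6.01 and 6.16 in WT on 1455277_PM_at. The difference was -1.23 ± 0.22 (SE; adjusted p = 0.108), -0.74 and -1.37 in the fat-rich and fat-poor lungs, and a further kept probe set differed by -1.15. Chia1, an acidic chitinase secreted by alveolar type II cells, read 8.65, 8.71 and 8.55 in KO and 9.25, 9.61 and 9.58 in WT. The filter requires such separation. Chia1 differed by -0.84, with SDs of 0.08 and 0.20 (n = 3 each; adjusted p = 0.127), and by -0.62 and -0.94 in the fat-rich and fat-poor lungs. Edn1, the vasoconstrictor endothelin 1, differed by -1.12 (-0.59 and -1.38), Foxf2, a mesenchymal forkhead factor, by -1.03 (-0.92 and -0.78) and Tmem88, a membrane protein that dampens Wnt signalling, by -0.92 (-0.74 and -0.96). For other genes the probe sets disagreed. Ehf, an epithelial ETS factor, differed by -1.003 (-1.43 and -0.63) on 1 probe set and by -0.72 and -0.03 on its other kept ones. Ndel1, a dynein regulator, differed by -1.15 (-1.51 and -0.997) on 1 probe set and by -0.21 on the brighter one. On the probe sets the filter chose, the adjusted p of these 5 genes lay between 0.415 and 0.476.

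The higher genes chosen the same way had mixed roles. A330076H08Rik, an uncharacterised transcript, differed by 1.11 (adjusted p = 0.183), and Klf5, a Krüppel-like factor of epithelium, by 0.91 from 6.25 ± 0.51 to 7.17 ± 0.28 (SD, n = 3 each; adjusted p = 0.447). Both passed with the fat set as a block, at adjusted p of 0.0165 and 0.0366. For A330076H08Rik this rests on 1 probe set, whose WT mean of 3.64 lay under the limit of 3.79. Its other kept probe set was brighter and differed by 0.41, with groups that overlapped, and did not pass. Plod1, a collagen lysyl hydroxylase, differed by 0.88, and Ms4a6b, a membrane protein of T cells and macrophages, by 0.86 and 0.69 on its 2 probe sets. The next 4 rest on 1 probe set each, and their other ones did not go along. Cap2, an actin-regulating protein, differed by 0.91 and 0.31, and Ltbp3, a binding protein of latent TGF-beta, by 0.75 but by 0.05 on its brightest probe set. Zfp947 differed by 0.998, and by -0.68 on a probe set under the limit of 3.79. The nucleoporin-associated gene Ahctf1 differed by 0.85, and by 0.05, 0.35 and -0.29 on its 3 others. None of these 6 genes passed, with adjusted p between 0.436 and 0.711 on the probe sets the filter chose. On those probe sets the WT means of Cap2, Zfp947 and Ms4a6b, at 3.37, 3.50 and 3.49, also lay under 3.79. They and the A330076H08Rik probe set were thus kept only through their KO values.

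The largest positive differences, apart from the called genes and the other Pisd-ps3 probe sets, were those of genes abundant in fat. Ucp1 differed by 3.51 between the genotype means, but by 4.85 among fat-rich and -0.23 among fat-poor lungs. Cidea, a lipid droplet protein of brown fat, differed by 2.67, with 2.84 and -0.34, and Adipoq by 2.26. Car3, Tmem45b and Thrsp differed by 2.14, 2.14 and 2.12. All 6 had an adjusted p of at least 0.711. With the fat transcripts entered as a term the difference was -0.06 for Car3, -0.13 for Tmem45b and -0.02 for Thrsp. These values are for the probe set of largest difference per gene. The brightest Car3 probe set differed by 0.56, and by -3.33 with this term. Other Car3 probe sets gave -1.26 and 0.33 with it, and the brighter Thrsp one -0.98. On the probe sets of largest difference, the SDs within KO of the 6 genes lay between 2.85 and 4.58. The part of carried-along fat in other results was not tested.

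At the lower end, Gdpd3, a lysophospholipase, differed by -2.88 with 4.69, 4.74 and 4.87 in KO and 8.32, 4.57 and 10.04 in WT. WT 1624 was as low as the KO lungs, so the groups overlapped. Trim16 differed by -1.74 (-1.76 and -0.80 within the fat-rich and fat-poor lungs). Its groups overlapped, with KO 1602 at 6.27 and WT 1592 at 6.17, and its other kept probe set differed by -0.68. Zbtb16, a zinc finger repressor induced by glucocorticoids, differed by -1.18. None of these genes was called (adjusted p = 0.711 each on the probe set of largest difference).

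Genes induced by glucocorticoids had the lowest median of the lists of lung and signalling genes apart from smooth muscle. Of 17 kept members, 14 were lower and 3 higher in KO, with a median of -0.44 against -0.08 over all kept genes. The median was -0.44 in the fat-rich and -0.52 in the fat-poor lungs, and 12 of 17 members were lower in both, against 33.5% of all kept genes. With the fat set as a block it was -0.26. Averaged over the list, the KO lungs read 8.64, 8.89 and 8.60 and the WT lungs 9.09, 9.17 and 9.32, without overlap. Such separation was not particular to this list. The mean of all kept genes was 6.9421, 6.9986 and 6.8861 in KO and 7.0225, 7.0205 and 7.0087 in WT, also without overlap. Means of the hedgehog and cell cycle lists did not overlap either. In 6 of 17 members the unadjusted p was under 0.05, all lower, against 3.68% of all kept genes, and Fam107a alone was called. The list was drawn up with earlier results of these data known, so its direction is a description.

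Fkbp5, a co-chaperone that restrains the glucocorticoid receptor, read 5.63, 5.80 and 5.58 in KO and 6.38, 6.68 and 6.77 in WT, a difference of -0.94 (adjusted p = 0.506), or -0.69 and -1.09 in the fat-rich and fat-poor lungs. Zbtb16 read 7.08, 8.80 and 7.56 in KO and 8.81, 8.90 and 9.27 in WT. The KO lungs were all below the WT lungs in both, although KO 1603 lay close to the WT range for Zbtb16, which differed by -0.625 among fat-rich and -2.01 among fat-poor lungs. Ddit4, an inhibitor of mTORC1 signalling, differed by -0.67, Tsc22d3, known as GILZ, by -0.57 and Klf9 by -0.48. The kinase gene Sgk1 differed by 0.13 and Pdk4, which restrains pyruvate dehydrogenase, by 0.87 with 4.91 in the fat-poor KO 1602 and 7.95 and 8.55 in the fat-rich KO lungs.

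One promoter window each of Fam107a and Tsc22d3 is shown because they are members of this list, the one called and the other not, that hold a short glucocorticoid receptor motif, spelled AGAACA and in capitals on either strand. Fam107a is at chr14:8309780-8310029 and Tsc22d3 at chrX:140600523-140600772, both on the minus strand of GRCm38.p6. RefSeq lists 3 starts for each gene, and 1 other Fam107a window and both other Tsc22d3 windows lack the motif.
Fam107a: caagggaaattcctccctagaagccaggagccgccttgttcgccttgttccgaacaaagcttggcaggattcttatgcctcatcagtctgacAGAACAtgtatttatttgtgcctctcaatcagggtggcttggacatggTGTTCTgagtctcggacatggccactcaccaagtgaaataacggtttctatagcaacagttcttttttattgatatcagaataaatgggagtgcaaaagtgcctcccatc
Tsc22d3: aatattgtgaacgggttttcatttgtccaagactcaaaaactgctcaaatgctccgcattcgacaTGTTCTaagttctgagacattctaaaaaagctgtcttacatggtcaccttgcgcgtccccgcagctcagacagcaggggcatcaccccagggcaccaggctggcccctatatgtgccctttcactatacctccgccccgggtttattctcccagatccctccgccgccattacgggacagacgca
The Fam107a window holds this motif on both strands and that of Tsc22d3 holds it once. In all, 3 of 15 list members with a promoter entry (20.0%) had it, namely these and Sgk1, against 18.2% of all genes with an entry and 16.1% of all windows. The full site, AGAACA, any 3 bases and TGTTC, was found in Sgk1 only, 1 of 15, against 0.0333% of genes and 0.0304% of windows. The match is a description of these windows and not of receptor binding.

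Markers of the alveolar epithelium were close between genotypes. Of 14 kept type II genes, 11 were lower and 3 higher, with a median of -0.13, and Chia1 was among the lower ones. Napsa, the aspartic protease that processes surfactant protein B, differed by 0.49 and Sftpd by -0.22 (adjusted p = 0.711 and 0.748). Of 11 type I genes, 10 were lower, with a median of -0.25 that was -0.08 and 0.01 within the fat-rich and fat-poor lungs. Clic5, a chloride channel family protein, differed by -0.37 (adjusted p = 0.739).

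Airway lists varied with the fat division. Of 12 club and secretory genes, 6 were higher and 6 lower, with a median of -0.01. Their mean was 8.32, 12.04 and 11.47 in KO and 12.42, 10.10 and 8.95 in WT, so animals differed more than genotypes. Of 11 ciliated genes 7 were lower, with a median of -0.12 that was -0.82 among fat-rich and 0.26 among fat-poor lungs. Foxj1, the regulator of motile cilia, differed by -0.27 (adjusted p = 0.882).

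In vessel, muscle and matrix lists no gene was called, and member counts are read against the 66.8% of all kept genes that were lower. Of 16 endothelial genes 15 were lower, with a median of -0.24, but it was 0.14 in the fat-rich and -0.30 in the fat-poor lungs. Edn1 read 6.76, 7.09 and 6.41 in KO and 7.34, 8.35 and 7.95 in WT. Pecam1, an adhesion molecule of endothelium, differed by -0.50 (adjusted p = 0.726). All 7 smooth muscle genes were lower, with a median of -0.55 (-0.42 and -1.15 in the fat-rich and fat-poor lungs), and KO 1602, lowest in the fat and atrial transcripts, was also lowest in their mean at 6.03 against 6.81 to 7.79 on the other arrays.

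Of 14 fibroblast genes 13 were lower, with a median of -0.28, and -0.01 and -0.74 in the fat-rich and fat-poor lungs. Tcf21, a factor of lung mesenchyme, differed by -0.52 and Bgn, a matrix proteoglycan, by -0.49 (adjusted p = 0.711 for both). Of 8 hedgehog genes 5 were lower, near that background share, with a median of -0.14. Boc, a hedgehog co-receptor, differed by -0.55, while the transducer Smo and the factor Gli3 differed by 0.07 and 0.05. Mesothelial genes had 4 of 7 higher and a median of 0.09.

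No immune cell gene was called, and the neutrophil list had the second highest median after fat. Of its 8 genes 7 were higher, with a median of 0.65, and 0.56 and 0.16 in the fat-rich and fat-poor lungs, and 3 were higher at an unadjusted p under 0.05, against 1.61% of all kept genes. The mean of the list was 5.74, 7.34 and 7.26 in KO and 7.07, 5.26 and 6.01 in WT, high in the fat-rich lungs of both genotypes. It includes Ltf, which is also in the club and secretory list. Ltf read 4.32, 11.33 and 8.52 in KO and 11.59, 5.42 and 4.55 in WT. How far the mean depends on Ltf was not tested. S100a9, a calcium-binding protein of neutrophils, read 8.39, 9.85 and 10.78 in KO and 9.08, 6.33 and 8.23 in WT, so the groups overlapped (difference 1.79, adjusted p = 0.711). All 8 T and NK cell genes were higher, with a median of 0.14 that was 0.55 and -0.20 within the 2 sets of arrays. Of 12 macrophage genes 7 were lower with a median of -0.09, and Marco, a scavenger receptor, differed by -0.55 (adjusted p = 0.710). B cell and MHC II genes had 5 of 8 lower and a median of -0.12, and erythroid genes had 2 of 3 lower and a median of -0.04.

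Genes tied to the known roles of NM1 stayed near the background. Of 11 RNA polymerase I genes, 5 were higher and 6 lower, with a median of -0.06. Rrn3, the initiation factor TIF-IA, differed by -0.49 (adjusted p = 0.711). Of 13 partners of NM1 and remodelling genes 11 were lower, with a median of -0.13. Smarca5, the ATPase SNF2H of the B-WICH complex, differed by -0.32 and the helicase Ddx21 by -0.43. Of 19 ribosome biogenesis genes 14 were lower, with a median of -0.09. None of these genes was called, and the interval of each single difference was not narrow, with SEs of 0.18 for Ddx21 and 0.19 for Rrn3.

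Of 16 myosin genes, Myo1c included, 12 were lower and 4 higher, with a median of -0.15. Myo6, the motor that walks toward the minus end of actin, differed by -0.37 and Myo1g by 0.25 (adjusted p = 0.711 and 0.794). Of 17 genes of GLUT4 and vesicle traffic 12 were lower, with a median of -0.11. Exoc2 and Exoc4, subunits of the exocyst, differed by -0.40 and -0.28. Slc2a4, which encodes GLUT4, was 3.71, 5.77 and 5.51 in KO and 5.09, 3.75 and 3.85 in WT, high in the fat-rich lungs.

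Growth and stress lists are likewise read against 66.8% of kept genes lower and a median of -0.08. All 16 cell cycle genes were lower, with a median of -0.25, and 10 were lower in both sets of arrays (62.5%, against 33.5% of all kept genes). The cell cycle median was -0.08 in the fat-rich and -0.36 in the fat-poor lungs, against -0.06 and -0.05 over all kept genes. Top2a, a topoisomerase of dividing cells, read 3.67, 4.06 and 3.30 in KO and 4.39, 4.15 and 4.44 in WT, a difference of -0.65 (adjusted p = 0.711). Of 14 p53 targets 12 were lower, with a median of -0.16, and Zmat3 differed by -0.52. Heat shock and unfolded protein genes had 16 of 17 lower with a median of -0.20, and Xbp1, a factor of the unfolded protein response, differed by -0.24. Clock genes had 11 of 14 lower with a median of -0.17, but it was 0.09 in the fat-rich and -0.44 in the fat-poor lungs. Immediate early genes, with 12 of 18 lower and a median of -0.07, matched the background.

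Respiratory chain genes were the longest list and pointed 1 way. All 32 kept genes were higher in KO, against 33.2% of all kept genes, with a median of 0.28. Of the 32, 5 had an unadjusted p under 0.05, against 1.61% of all kept genes higher at that limit, but none was called. Their mean was 9.73, 10.32 and 10.38 in KO and 10.12, 9.78 and 9.69 in WT, highest in the fat-rich lungs of either genotype. Within the fat-rich and fat-poor lungs the medians were 0.19 and 0.06. In both sets of arrays 24 of the 32 genes were higher (75.0%), against 15.2% of all kept genes. Ndufb8, a subunit of complex I, read 10.23, 10.87 and 11.08 in KO and 10.49, 10.09 and 9.94 in WT (difference 0.55, adjusted p = 0.711). The fat list itself had all 7 kept members higher with a median of 1.80, the atrial list 4 of 5 lower with a median of -0.17, and the striated muscle list 10 of 12 lower with a median of -0.22.

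**Figure D4:**
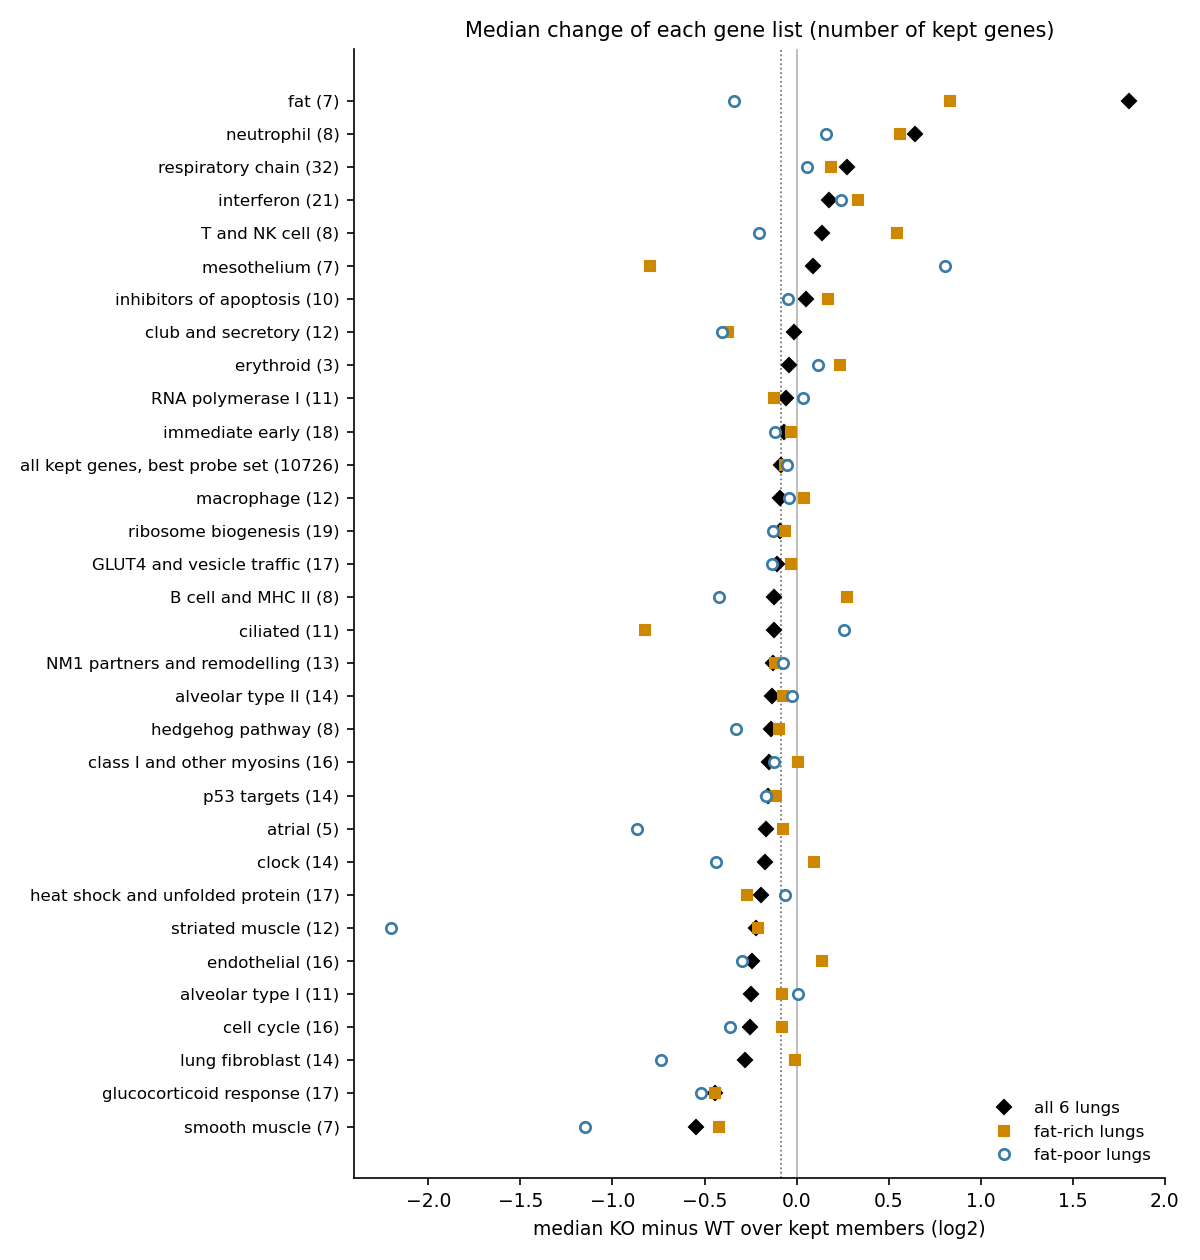
Median KO minus WT (log2, horizontal) over the kept members of each gene list, with the number of kept genes in parentheses; black diamonds are all 6 lungs, filled squares the fat-rich and open circles the fat-poor lungs, and the dotted line is the median of all kept genes. The fat list runs from 1.80 over all lungs to -0.34 in the fat-poor lungs, while the glucocorticoid response list lies between -0.52 and -0.44 for the 3 markers.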

How the data were processed

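The authors deposited log2 signals, 1 per probe set and array, of Affymetrix mouse arrays hybridised with labelled RNA of lungs, heart and skin fibroblasts. Partek 6.4 is named per the submitters' processing notes; for background correction, probe summary and normalization the method is not given in the sources used. That values are log2 was inferred from their range, and they were used as deposited. Of 45141 entries 104 controls were set aside. The array annotation gives exactly 1 gene for 28898 probe sets, several for 551 and none for 15588, and 28689 took a current symbol through their gene number.

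The mean of each of the 6 groups was estimated over all 16 arrays with limma 3.58.1 in R 4.3.3 (10 residual and 3.53 prior degrees of freedom), with variances moderated over all 45037 probe sets. Two-sided p-values received a Benjamini-Hochberg adjustment across the 23213 kept probe sets, with calls at an adjusted p under 0.05. The fit was tested on simulated data. Hearts and lungs share mouse numbers; KO and WT do not, so genotypes are unpaired.

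The comparison and the 31 gene lists (499 genes, 441 measured, 392 kept) were chosen with earlier results of these data known. Lists use the probe set of highest mean per gene. Named genes were all Myo1c probe sets, called probe sets, the 12 of smallest p in each direction that met the rule of both fat sets, the 8 of largest difference in each direction, tissue markers, and the 2 of smallest p in each direction of each list; further list members named were chosen after their values were seen. Alternatives were other normalization, filters, blocks, terms, variance settings and leaving out each array. Promoters and gene order come from RefSeq on GRCm38.p6.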

Additional observations from a re-analysis of the deposited data

How the results depend on the processing

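Against 7 called probe sets, 1 (Xaf1) was called with the lung arrays fitted alone, 25 with the fat transcripts as a term, 27 with the atrial transcripts as a term, 47 in the fat-poor lungs only, 4 without a filter on low values, 11 with a variance trend, 129 with array quality weights and 3 with the variance prior taken from the kept probe sets only, an alternative chosen after seeing the data. Leaving out 1 array at a time gave 0 to 59, the lowest without KO 1586 and the highest without KO 1602; the cause of these shifts was not tested. With the mouse as a random replicate block 7 were called, with quantile normalization 9 and with the fat set as a block 6, of which 3 were shared with the 7. In the fat-rich or fat-poor lungs alone a lone sample is assumed to vary like the other groups. The reversed values that follow are for the probe set of largest difference of each gene. Reversed values were -0.23 for Ucp1, -0.34 for Cidea, -0.99 for Adipoq, -0.19 for Tmem45b and -0.10 for Thrsp in the fat-poor lungs, -1.32 for Adipoq, -0.0601 for Car3, -0.13 for Tmem45b and -0.0196 for Thrsp with the fat term (which is made of Adipoq and Ucp1, so that the value of Adipoq follows from its construction), and -0.0774 for Adipoq with the fat set as a block. After quantile normalization 59.1% of kept genes were lower in KO, against 66.8%, and only the club and secretory list changed the sign of its median, to 0.03.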

Other observations

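Several genes that separated the genotypes in both fat sets lie on the chromosome of Myo1c. Of the 48 genes, 9 do (18.75%), against 911 of 10726 kept genes (8.49%). The 9 include Myo1c, the targeted gene, and 8 are left without it. Counted in kept genes away from Myo1c, Tlcd3a is 7, Cpd 13, Xaf1 36, Tmem88 100, Ndel1 112, Zfp39 192, Top2a 217 and Sfi1 418 genes distant. Xaf1 and Sfi1 are higher in KO on the probe set that was called, and the others are lower. The median difference of all kept genes on that chromosome was -0.07, against -0.08 over all kept genes.

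Among the 10 kept genes on either side of Myo1c none was called. Tlcd3a differed by -0.92, Nxn by -0.51, Tlcd2 by 0.62, Inpp5k by 0.44, Glod4 by -0.49 and Prpf8, a core splicing factor, by -0.38.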
